A study of Homo sapiens with 8 samples.

Results

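DUS1L crosslinking in cells given 5-chlorouridine (5-ClUrd) was compared with DUS1L crosslinking in untreated cells, in 4 of the 8 libraries of the series. Members were the libraries titled for DUS1L with 5-ClUrd (replicates 1 and 2) and for DUS1L control (replicates 1 and 2). The host was Flp-In T-Rex 293, an established line of human embryonic kidney origin, which carried a 3xFLAG-tagged DUS1L transgene under tetracycline control. Both groups had 1 µg/mL tetracycline for 12 h and then fresh medium with tetracycline for another 12 h, and this second medium held 100 µM 5-ClUrd in the treated group only. The RNA fragments held by the tagged enzyme were sequenced by iCLIP, which reports crosslink sites at the resolution of single nucleotides. The 2 libraries of each group are called biological replicates in the labels. All 8 libraries came from cells with a tagged enzyme, so that the level of background without one was not measured.

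Dihydrouridine synthases reduce uridine in tRNA to dihydrouridine, and the D loop of tRNA takes its name from this base. DUS1L is the human enzyme for positions 16 and 17 of that loop. 5-ClUrd is a uridine analogue that cells can build into RNA, and a halogen at carbon 5 of uracil can leave an enzyme of this kind joined to the base it acts on. The comparison asks which tRNAs, and which bases in them, the enzyme holds when the analogue is present.

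The untreated libraries were far shallower than the treated ones, and unequal. Untreated 1 held 144322 sense-strand counts and untreated 2 held 7369, against 824657 in 5-ClUrd 1 and 542521 in 5-ClUrd 2. A count of 3 is 0.0407% of untreated 2, so that a tRNA under this share could be missed there. Counts at single sites had a similar top in libraries of different depth. The fullest site held 1248 counts in untreated 1, 555 in untreated 2, 1269 in 5-ClUrd 1 and 1061 in 5-ClUrd 2, and none in the series exceeded 1436. 5-ClUrd 1 was 5.71 times as deep as untreated 1. At the 72 tRNA sites with more than 500 counts in untreated 1, its counts were at a median of 1.10 times those of untreated 1 (0.557 to 1.94). At the 580 tRNA sites with 10 to 50 counts in untreated 1 the median was 9.52 times. Sites above 500 counts in a library held 41.8% and 15.0% of untreated and 52.5% and 40.5% of treated counts, and what sets this top was not tested. They numbered 72 and 2 in the untreated and 539 and 280 in the treated libraries. Comparisons without sites above 500 counts left out, from all 4 libraries, every site above 500 in any of them. The choice of these sites thus rested mainly on high treated counts, which can by itself lower treated shares.

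**Figure D1:**
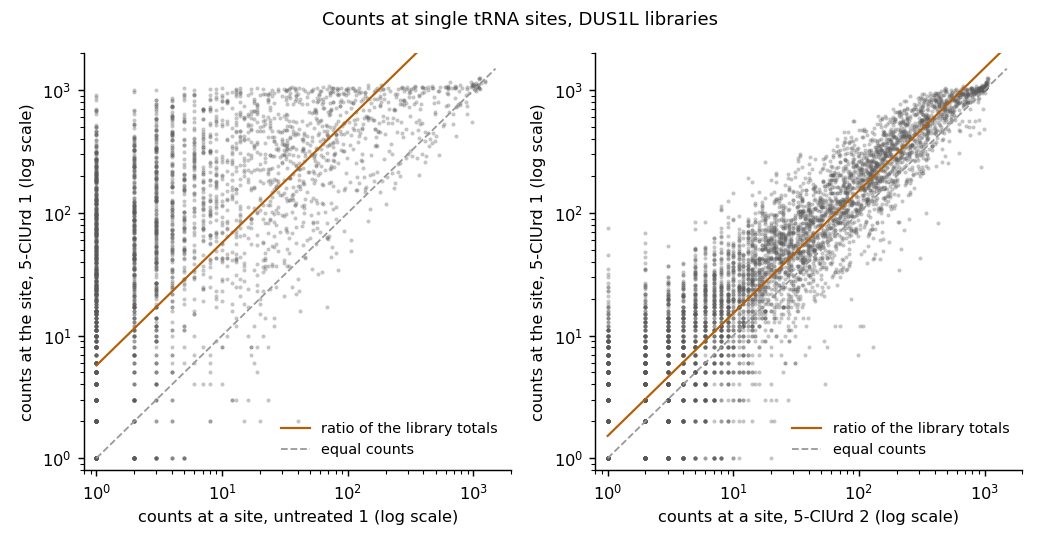
Counts at single tRNA sites in untreated 1 against 5-ClUrd 1 (left) and in 5-ClUrd 2 against 5-ClUrd 1 (right), both axes logarithmic, sites with counts in both libraries. The solid line is the ratio of the library totals (5.71 on the left) and the dashed line is equal counts; the fullest sites of untreated 1 lie near the dashed line and no site exceeds 1269 counts.

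The sites lay on 252 tRNA references, each a sequence shared by 1 or more tRNA genes, and on rRNA. Gene sequences of 11 of these references could be read, from RefSeq windows of GRCh38.p14 around the start of a neighbouring gene. The 5 shown here are those whose profiles are described base by base further on. The capitals mark bases 14 to 21, where the D loop lies, and the 3 bases of the anticodon; T stands for uridine in the tRNA.

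tRNA-Phe-GAA-1-5: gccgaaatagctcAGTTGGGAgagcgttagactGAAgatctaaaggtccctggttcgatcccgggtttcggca
tRNA-Arg-ACG-2-1: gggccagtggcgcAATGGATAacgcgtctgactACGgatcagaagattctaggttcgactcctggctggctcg
tRNA-Ala-AGC-2-2: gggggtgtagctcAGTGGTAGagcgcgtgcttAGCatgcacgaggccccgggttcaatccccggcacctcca
tRNA-His-GTG-1-3: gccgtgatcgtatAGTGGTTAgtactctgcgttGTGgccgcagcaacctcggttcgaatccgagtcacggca
tRNA-Asn-GTT-6-1: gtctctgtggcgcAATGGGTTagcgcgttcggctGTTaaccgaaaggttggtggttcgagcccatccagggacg

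The phenylalanine gene lies at chr13:94549650-94549722, the arginine gene at chr3:45688999-45689071, the alanine gene at chr6:28863685-28863756 and the asparagine gene at chr1:143735920-143735993, each on the minus strand. The histidine gene lies at chr1:148281365-148281436 on the plus strand. Position 1 is the first base at the 5′ end. The anticodon begins at position 34 in the phenylalanine, arginine and histidine tRNAs, at 33 in the alanine tRNA and at 35 in the asparagine tRNA, so that the same base of the fold can lie a position apart between tRNAs.

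With 5-ClUrd, a larger part of the tRNA counts lay in the 5′ part of the molecule. Positions 1 to 21 held 16.3% and 20.1% of untreated tRNA counts and 33.2% and 34.3% of treated tRNA counts. The means were 18.2% ± 2.67 and 33.8% ± 0.767 (SD, n = 2 each), and the groups did not overlap. The exact two-sided permutation test gave p = 0.33333, which is the smallest value that 2 against 2 libraries allow, for this and for every share whose groups do not overlap. Without sites above 500 counts, an alternative chosen after seeing the data, the values were 19.8% and 36% untreated and 35% and 39.2% treated, and the groups overlapped.

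Within that 5′ part, the 2 stretches before the D loop had the largest ratios. Positions 1 to 9, the 5′ strand of the acceptor stem and the bases after it, held 2.57% and 4.02% of untreated counts and 7.07% and 8.07% of treated counts. Positions 10 to 13, the 5′ strand of the D stem, held 2.98% and 1.58% untreated and 7.11% and 7.54% treated. Treated values were 2.30 times the untreated mean at positions 1 to 9 and 3.21 times at positions 10 to 13. Over 13 windows of the tRNA, 6 had separate groups, and the adjusted p of each was 0.722.

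The D loop, positions 14 to 21, held 10.8% and 14.5% of untreated and 19.0% and 18.7% of treated tRNA counts, so that both treated libraries lay above both untreated ones. The means were 12.7% ± 2.64 and 18.9% ± 0.243 (SD, n = 2 each; p = 0.33333, exact permutation test). Positions 16 and 17 of the reference together held 2.48% and 1.98% untreated and 4.75% and 4.74% treated, 2.13 times the untreated mean. These are positions in the reference, not in the standard numbering to which the known target sites refer: of the 5 printed sequences, 5 have a uridine at position 16, 1 at position 17 and 3 at position 20. Position 20 held 2.44% and 3.38% untreated and 2.36% and 2.39% treated, lower in both treated libraries. The difference at positions 14 to 21 was 6.22 percentage points, and it was 2.73 points with overlapping groups when sites above 500 counts were left out. Counting each site once, whatever its counts, turned the sign to -0.679 points.

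The anticodon loop and the base before its stem held a smaller part of the treated counts. Positions 32 to 38 held 26.1% and 34% of untreated counts and 16.4% and 19.3% of treated counts, without overlap. Of 43 positions that held at least 1% of tRNA counts in any library, 16 were higher in both treated libraries and 5 were lower in both. The 5 lower ones were 20, 26, 32, 37 and 58. Position 37 held 6.94% and 19.7% untreated and 2.86% and 3.95% treated. It is the base next to the anticodon in the printed phenylalanine, arginine and histidine tRNAs. Position 26, in these tRNAs between the D arm and the anticodon arm, held 7.22% and 20.7% untreated and 6.30% and 6.52% treated. Among the higher ones, position 9 held 0.765% and 0.627% untreated and 2.29% and 2.63% treated.

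**Figure D2:**
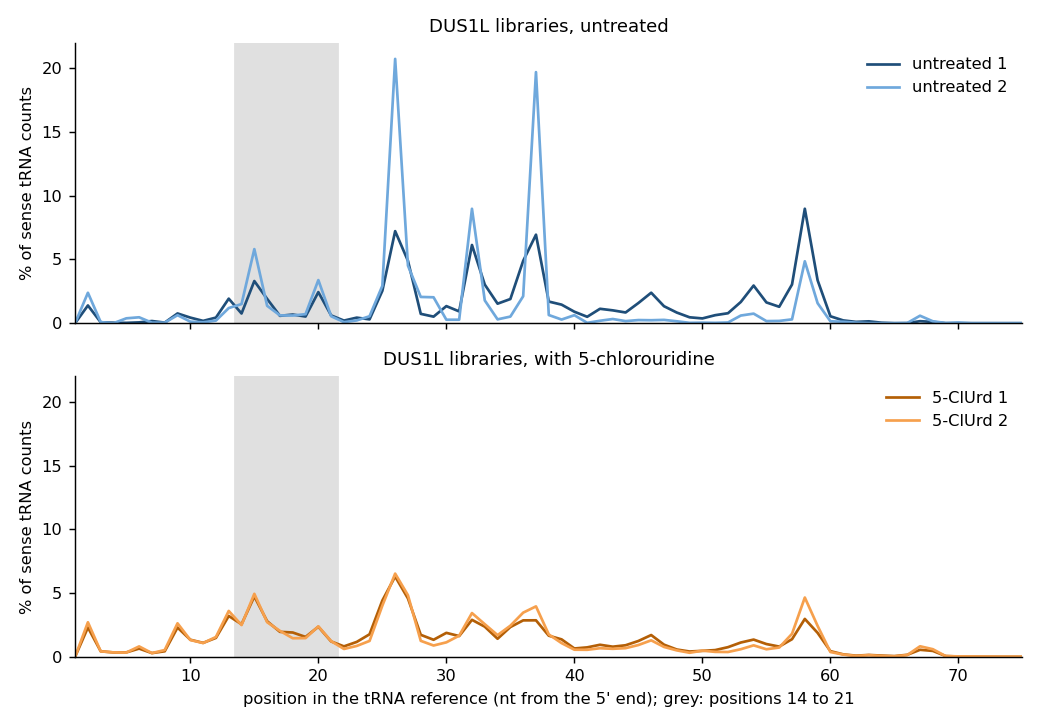
Share of sense tRNA counts (%) at each position of the tRNA reference in the 2 untreated libraries (top) and the 2 libraries with 5-ClUrd (bottom), on the same scale; grey marks positions 14 to 21. Untreated 2 reaches 20.7% at position 26 and 19.7% at position 37, and no treated library exceeds 6.52% at any position.

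Positions 9, 26, 32, 37 and 58 are, in the standard numbering of tRNA, places where many human tRNAs carry methylated bases (m1G9, m2,2G26, m3C32, m1G37 and m1A58); no modification was measured here. This set was put together after the profile had been seen, so that its values are a description. They are for positions in the reference, where the same base of the fold can lie a position apart between tRNAs. Position 36 of tRNA-Ala-AGC, the base after the anticodon in its printed sequence, thus lay outside the set. The 5 positions held 30.0% and 54.9% of untreated and 17.3% and 21.2% of treated counts. Without sites above 500 counts, also chosen as an alternative after seeing the data, they held 8.86% and 5.70% untreated and 9.28% and 11.1% treated, so that the order of the groups turned. This holds for the sum: position 9 was higher in both treated libraries with all sites, and positions 32 and 58 had lower treated means without the fullest sites too (2.18% against 2.36%, and 1.18% against 1.68%), with overlapping groups.

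Counts were also less concentrated with 5-ClUrd. The 10 fullest isoacceptor positions, where an isoacceptor is the set of tRNAs of 1 amino acid and anticodon, held 17.8% and 46.6% of untreated tRNA counts and 5.92% and 7.54% of treated ones. The difference of means was -25.5 percentage points (p = 0.33333, exact permutation test). It was -11.1 points without untreated 2 and -39.9 points without untreated 1. The part of depth and of the top of site counts in this difference was not tested.

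The fullest untreated positions lay in arginine, phenylalanine and valine tRNAs. Position 26 of tRNA-Arg-TCG held 2732 and 686 counts untreated and 5171 and 3728 with 5-ClUrd. Position 32 of tRNA-Arg-CCT, whose 3-methylcytidine is a known feature of this tRNA, held 4278 and 525 untreated and 5089 and 4370 treated. Position 37 of tRNA-Phe-GAA, the site of the bulky base wybutosine, held 1126 and 555 untreated and 1278 and 1072 treated. At each of these 3 positions 5-ClUrd 1 exceeded untreated 1 by less than the 5.71 times by which it was deeper.

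The fullest treated positions were in part others. Position 27 of tRNA-Asn-GTT led with 6068 and 5213 counts (1240 and 67 untreated), followed by position 36 of tRNA-Ala-AGC with 4957 and 4494 (1124 and 41 untreated). As shares of their libraries, these 2 positions had overlapping groups and log2 differences of -0.06 ± 0.70 and 0.09 ± 0.74 (SE). In the asparagine and alanine sequences printed above, they are the base after the D stem and the base after the anticodon. Position 25 of tRNA-Ala-AGC rose from 108 and 7 to 4648 and 3710 counts (log2 2.90 ± 0.93, adjusted p = 0.0346, edgeR). Position 25 of tRNA-Ala-TGC rose from 84 and 2 to 4058 and 3525 (log2 3.64 ± 1.01, adjusted p = 0.0249). Neither rise passed under TMM scaling or without either of the treated libraries. Position 17 of tRNA-Ala-AGC, a D-loop base, held 34 and 32 counts untreated and 4377 and 3653 treated without passing (log2 1.47 ± 1.15, adjusted p = 0.300).

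Isoacceptor positions with at least 10 counts over the 4 libraries were then tested as shares of the library's sense counts, by edgeR's quasi-likelihood test with a threshold of 0.05 on the Benjamini-Hochberg adjusted p. Of 1921 positions, 579 rose (30.1%) and 30 fell (1.56%). By window, 276 of 658 tested positions from 1 to 21 rose (41.9%), 208 of 704 from 22 to 43 (29.5%) and 95 of 559 from 44 on (17%). The same 3 stretches held 1, 18 and 11 of the falls. At positions 16 and 17, 27 of 72 rose and 0 fell, a share of 37.5% against 30.1% over all positions. The median log2 difference over all 1921 positions was 2.80. A position can pass the count minimum through the deep treated libraries alone, where it is high, so that these shares describe the positions tested and support no order of the windows. Without untreated 1 the rises were 8 of 655, 10 of 697 and 2 of 554 in the 3 stretches, and without 5-ClUrd 1 they were 135 of 559 (24.2%), 94 of 636 (14.8%) and 93 of 480 (19.4%). Under TMM scaling, which assumes that most features stay the same, 263 rose and 116 fell; 270 rose and 99 fell under the size factors of DESeq2, and 267 rose and 118 fell by its Wald test. With TMM factors 138 positions rose and 6 fell from 1 to 21, 93 and 69 from 22 to 43, and 32 and 41 from 44 on.

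**Figure D3:**
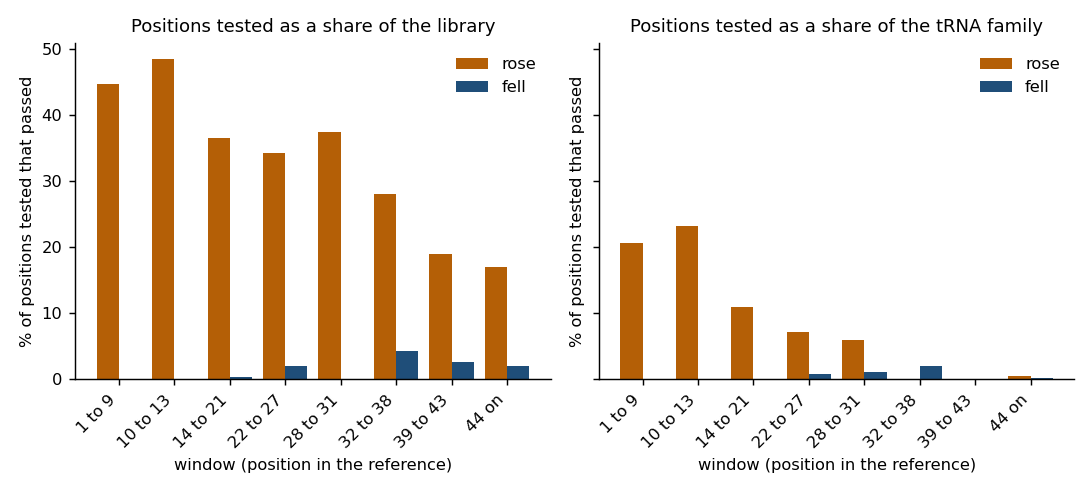
Percentage of tested isoacceptor positions that rose or fell with 5-ClUrd (edgeR, adjusted p under 0.05) in 8 windows of the tRNA, tested as a share of the library (left) and as a share of the tRNA's own counts (right). Bars for rises are highest at positions 10 to 13, with 48.5% on the left and 23.2% on the right. They are lowest, at 17% on the left, from 44 on, while on the right no position from 32 to 43 rose. Positions can pass the count minimum through the treated libraries alone, so that the bars support no order of the windows.

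The rises rest on very few untreated counts. Of the 579 positions that rose, 267 had 0 untreated counts, 175 had 1 to 3 and 137 had more. Without untreated 1, so that the shallow untreated 2 was the only control, 20 positions rose and 20 fell. Without 5-ClUrd 1 there were 322 rises and 19 falls. The 10 largest rises all had 0 counts in both untreated libraries, and against a floor of 3 counts over both (0.00198% of their sense counts) they were at least 24.3-fold to 81.1-fold higher. All 10 passed without untreated 2, 1 of them without 5-ClUrd 2, and none without untreated 1 or without 5-ClUrd 1 (0 of 10 in edgeR each time, at log2 differences of 9.44 and more).

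The largest rises were in the 5′ parts of threonine and alanine tRNAs. Position 9 of tRNA-Thr-CGT had 1425 and 802 treated counts and was at least 81.1-fold higher. Position 14 of tRNA-Ala-CGC had 706 and 494 treated counts (at least 44.7-fold), and positions 9 and 10 of tRNA-Ala-AGC had 474 and 558 and 351 and 478 (at least 40.5-fold and 33-fold). Of the 10, 8 lay at position 15 or before; the others were position 32 of tRNA-Ser-AGA (320 and 362 counts) and position 22 of tRNA-Phe-GAA (483 and 203 counts). The remaining 4 were positions 6 and 15 of tRNA-Thr-TGT (587 and 329, and 649 and 351 counts) and positions 2 and 12 of tRNA-Ala-TGC (108 and 591, and 237 and 399 counts).

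Of the 30 falls, 19 had 0 counts in untreated 2 and 11 had groups without overlap. The 10 largest of these 11 were led by position 37 of tRNA-Phe-GAA, at a log2 difference of -4.56 ± 0.95 (SE, adjusted p = 0.0217). It held 0.780% of untreated 1, 7.53% of untreated 2 and 0.155% and 0.198% of the treated libraries, and without untreated 2 its difference was -2.15 and passed. Position 26 of tRNA-Arg-CCG fell by 3.54 (1161 and 228 untreated, 1166 and 1049 treated counts), and position 37 of tRNA-Arg-ACG fell by 3.34 (2154 and 392, 2350 and 2092). Position 26 of tRNA-Phe-GAA fell by 3.27, position 26 of tRNA-Arg-TCG by 3.09, position 32 of tRNA-Arg-CCT by 2.82 and position 37 of tRNA-Arg-TCG by 2.58. Position 26 of tRNA-Arg-ACG, position 32 of tRNA-Arg-TCT and position 32 of tRNA-Val-TAC, the last with 42 and 1 untreated counts, completed the 10. Thus 9 of the 10 were at position 26, 32 or 37 of an arginine or phenylalanine tRNA.

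Most of these falls were lost or could not be tested without the fullest sites. When sites above 500 counts were left out, 5 of the 10 could not be tested, position 37 of tRNA-Phe-GAA was at 0.55 and position 26 of tRNA-Arg-CCG at 1.66, and position 32 of tRNA-Val-TAC was the 1 that passed (-3.89). Position 26 of tRNA-Phe-GAA (-1.64) and position 32 of tRNA-Arg-TCT (-1.91) kept their sign and did not pass. All 10 passed without untreated 2, at -3.25 to -1.41, and 8 passed without untreated 1. All 10 passed with TMM factors, and with DESeq2 size factors. Without either treated library 1 of the 10 passed, position 37 of tRNA-Phe-GAA (-4.39 and -4.74).

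Each position was next tested against the counts of its own isoacceptor, which sets aside any change of the whole tRNA. For the 21 isoacceptors with at least 50 counts in each library, 82 of 1207 positions took a larger part of their tRNA with 5-ClUrd (6.79%) and 6 took a smaller part (0.497%). By window, 66 of 387 positions from 1 to 21 rose (17.1%), 14 of 458 from 22 to 43 (3.06%) and 2 of 362 from 44 on (0.552%). At positions 16 and 17, 8 of 41 rose and 0 fell (19.5%). Of the 82 rises, 34 had 0 untreated counts, 27 had 1 to 3 and 21 had more. Here too a position can pass the count minimum through the treated libraries alone, so that these shares support no order of the windows. With sites above 500 counts left out, 249 positions could be tested and 11 rose, 6 of 86 from 1 to 21 and 5 of 94 from 22 to 43. Without untreated 1 there were 196 rises and 37 falls, and the rises were spread evenly, with 67 of 386 positions from 1 to 21 (17.4%), 79 of 458 from 22 to 43 (17.2%) and 50 of 360 from 44 on (13.9%). Without untreated 2 there were 282 and 41, and without 5-ClUrd 1 there were 35 and 1.

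The 10 largest rises within a tRNA, all from 0 untreated counts, were again mainly in alanine tRNAs. Position 22 of tRNA-Phe-GAA, the first base after the D loop in its sequence, was at least 24.3-fold higher (log2 10.52 ± 2.19, SE, adjusted p = 0.000624). Position 6 of tRNA-Arg-TCT, with 291 and 153 treated counts, was at least 27.4-fold higher, and position 18 of tRNA-Arg-ACG, a D-loop base with 347 and 86 treated counts, at least 22.5-fold. The others were position 9 of tRNA-Thr-CGT, positions 4, 9 and 10 of tRNA-Ala-AGC and positions 2, 12 and 27 of tRNA-Ala-TGC, at least 4.08-fold to 9.54-fold higher. All 10 passed without untreated 2, 1 each passed without untreated 1 and without 5-ClUrd 1, and 0 passed in edgeR without 5-ClUrd 2, where 150 of 1176 positions had an unadjusted p under 0.05.

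The 8 rises at positions 16 and 17, singled out after their values were seen and all given here, lay in 8 different tRNAs. Position 17 of tRNA-Phe-GAA, the second of a pair of uridines in its sequence, rose from 4 and 0 counts to 460 and 186 (log2 4.19 ± 1.13, adjusted p = 0.0100). Position 16 of tRNA-Arg-ACG, a uridine, rose from 7 and 1 to 324 and 172 counts (log2 3.29 ± 1.07). Position 17 of tRNA-Arg-CCT rose from 9 and 0 to 428 and 259 counts (log2 3.34 ± 1.13). In tRNA-Ile-AAT (2 untreated counts) the ratio of the shares of the tRNA was 29.9, with a 95% counting interval of 8.26 to 248. In tRNA-Lys-TTT (1 untreated count) it was 49.1, with an interval of 8.78 to 1942. In tRNA-Tyr-GTA, tRNA-Met-CAT and tRNA-Trp-CCA, with 0 untreated counts, position 17 was at least 6.84-fold, 5.61-fold and 2.98-fold higher. Without 5-ClUrd 1, 0 of 38 tested positions 16 and 17 rose, and without 5-ClUrd 2, 3 of 41 rose, by the same edgeR test.

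Within their tRNA, 4 positions fell with groups that did not overlap. Position 37 of tRNA-Phe-GAA held 25.7% and 50.9% of that tRNA's counts untreated and 3.96% and 6.17% with 5-ClUrd. Position 32 of tRNA-Arg-CCT held 28.7% and 69.4% untreated and 6.48% and 9.20% treated, position 26 of tRNA-Arg-CCG 15.6% and 61.5% against 5.55% and 6.60%, and position 37 of tRNA-Arg-ACG 28.2% and 64.5% against 7.97% and 11.3%. All 4 missed the threshold without either treated library, at log2 differences between -3.27 and -2.04, and 3 of them could not be tested without sites above 500 counts. Without untreated 2, 3 of the 4 passed.

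The D-loop share of each isoacceptor followed the same order in a part of them. In 10 of 21, both treated libraries had more of the tRNA's counts at positions 14 to 21 than both untreated ones, in 1 they had less and in 10 the groups overlapped. tRNA-Ala-TGC went from 14.4% and 5.26% to 37.8% and 38.8%. tRNA-Thr-CGT went from 2.40% and 0% to 17.7% and 13.4%, tRNA-Arg-ACG from 0.773% and 0.493% to 9.66% and 6.68%, and tRNA-Tyr-GTA from 0.900% and 8.22% to 12.9% and 12.5%. tRNA-Val-TAC, the exception, went from 50.2% and 79.0% to 32.5% and 37.2%. tRNA-Val-CAC (41.1% and 55.1% untreated, 38.2% and 43.1% treated) and tRNA-Lys-CTT (36.5% and 55.5% untreated, 36.8% and 33.8% treated) had large D-loop shares already without the analogue, with overlapping groups.

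The sequences printed above give the base at each of these positions. Whether a deposited site is the crosslinked base or its neighbour is not stated in the sources used, so that each base named here, and each share on uridines, is that of the site's own position. In the phenylalanine reference, the G at position 37, the base 3′ of the anticodon, held 1125 and 555 counts untreated and 1269 and 1061 treated. The counts in untreated 2 and in both treated libraries equal the fullest site of those libraries. The neighbouring D-loop bases G15, U16 and U17 held 36 and 126, 9 and 8, and 4 and 0 counts untreated, against 1071 and 939, 951 and 616, and 459 and 185 treated. G15 thus held 0.830% and 11.6% of the reference's counts untreated and 3.39% and 5.49% treated, with overlapping groups. U16 held 0.208% and 0.734% untreated and 3.01% and 3.60% treated, and U17 held 0.0922% and 0% untreated and 1.45% and 1.08% treated; neither pair overlapped.

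In the arginine reference, 2 guanosines were the fullest bases named here. G37 held 1053 and 87 counts untreated and 1113 and 1032 treated, or 28.8% and 69.6% of the reference against 11.8% and 16%, without overlap. G26 held 990 and 17 counts untreated and 1088 and 1012 treated, or 27.1% and 13.6% against 11.5% and 15.7%, with overlapping groups. The treated counts of G37 and G26 lay near the top of site counts, whose part in these shares was not tested. U16 held 4 and 0 untreated and 40 and 15 treated, or 0.422% and 0.233% of the treated counts of this reference. Its D loop as a whole held 0.821% and 0% of counts untreated and 3.68% and 2.02% treated, the lowest treated D-loop share of the 5 printed tRNAs.

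In the alanine reference, counts spread from the anticodon loop to the D arm. A36, the base 3′ of the anticodon, held 387 and 28 counts untreated, or 58% and 26.7% of the reference, and 1061 and 1021 treated, or 6.04% and 7.25%. In the treated libraries G17 held 1022 and 990 counts, G15 held 939 and 830, and U16 held 637 and 478, against 9 and 20, 13 and 0, and 3 and 5 untreated. The D-loop share of this reference was 7.95% and 31.4% untreated and 31.78% and 32.7% treated. For all of tRNA-Ala-AGC it was 4.83% and 36% untreated and 33.2% and 31.9% treated, with overlapping groups. The treated counts of A36 and G17 lay near the top of site counts, whose part in these shares was not tested.

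In the histidine reference, U16 held 0 and 0 counts untreated and 310 and 251 treated, 9.36% and 9.29% of the treated counts. Untreated libraries held only 80 and 15 counts on this reference. A58, in the T loop, held 52.5% and 13.3% untreated and 25.4% and 30.7% treated. In the asparagine reference, G27 held 114 and 13 counts untreated and 999 and 897 treated, while U16 held 35 and 23 and U21 held 119 and 103 treated counts, with 0 in both untreated libraries. The untreated libraries had 200 and 13 counts there.

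**Figure D4:**
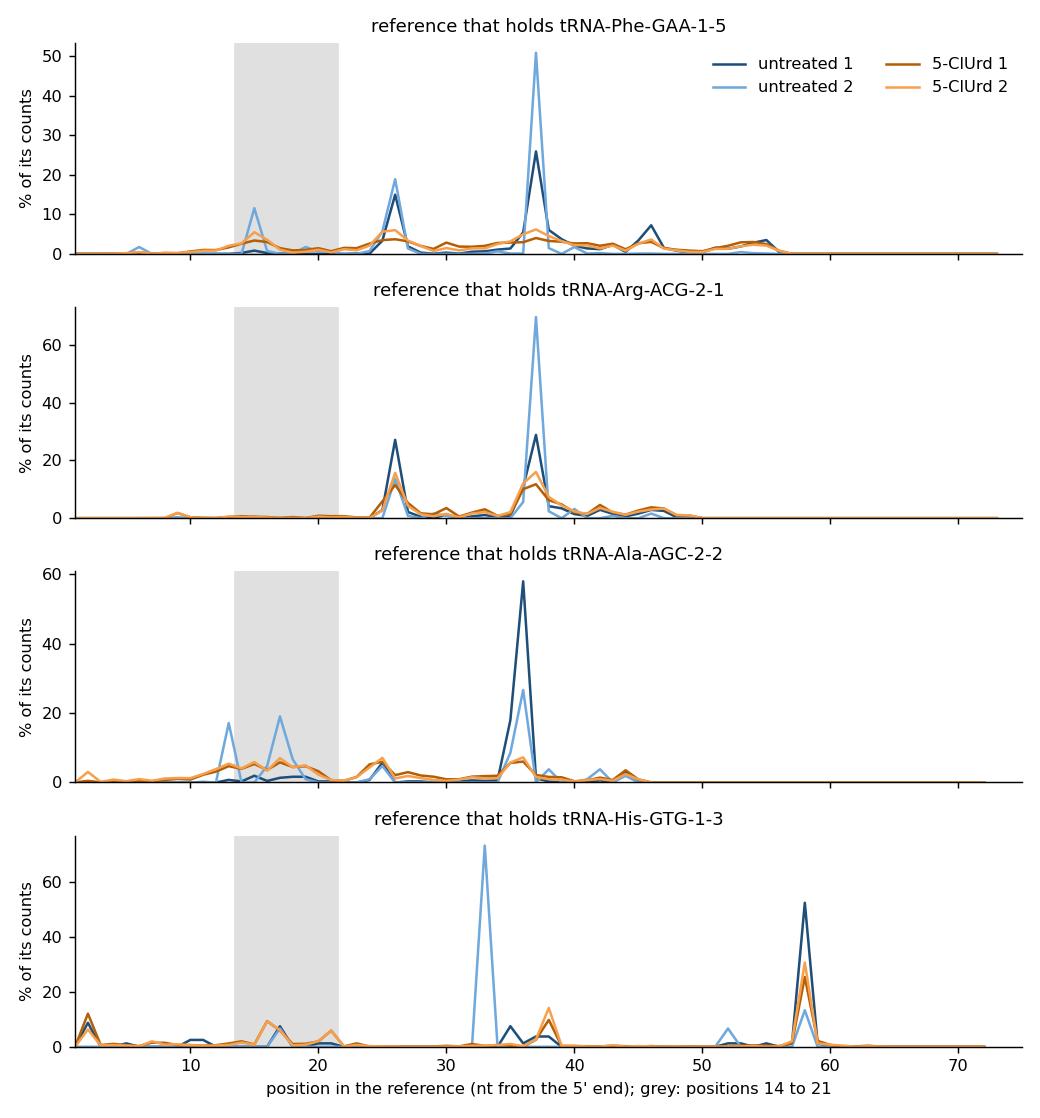
Percentage of a reference's own counts at each position, in the 4 libraries, for 4 of the references whose sequences are printed; grey marks positions 14 to 21. Position 37 of the phenylalanine tRNA reaches 50.9% in untreated 2 and at most 6.20% in treated libraries. The D loop of the alanine tRNA holds 7.95% and 31.4% untreated and 31.78% and 32.7% treated.

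The share of counts on uridines was higher with the analogue in 4 of the 5 printed tRNAs. Uridines are 23.3% of the phenylalanine tRNA, and they held 17.7% and 2.66% of untreated and 27.1% and 24.9% of treated counts. In the arginine tRNA, with 21.9% uridines, the values were 9.80% and 2.40% untreated and 19.99% and 16.8% treated. In the alanine tRNA, with 18.1% uridines, they were 4.50% and 5.71% untreated and 19.4% and 19.5% treated. In the asparagine tRNA, with 24.3% uridines, they were 12.5% and 0% untreated (13 counts in untreated 2) and 22.7% and 16.4% treated. In the histidine tRNA, untreated 2 had 73.3% of its 15 counts on uridines, above both treated libraries (22.5% and 18.7%), so that the groups overlapped. In the phenylalanine, arginine, alanine and asparagine tRNAs the share on uridines was thus higher in both treated than in both untreated libraries. The fullest base of each of these 4 references was a G or an A in every library, not a uridine. The part of the top of site counts at such bases in the uridine shares was not tested.

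Among whole families (isoacceptors, and the rRNA species), arginine tRNAs held a smaller part of the treated libraries and alanine, threonine and serine tRNAs a larger one. The 5 arginine families held 57.3% and 50.9% of untreated counts and 30.4% and 30.2% of treated counts, and 1 of the 5 fell. The 3 alanine families held 2.56% and 4.78% untreated and 12.0% and 13.6% treated, and 2 rose. The 3 threonine families held 1.18% and 1.78% untreated and 7.73% and 7.73% treated, and 2 rose. The 4 serine families held 0.482% and 2.31% untreated and 5.95% and 6.87% treated, and 0 rose. By edgeR 12 of 53 families rose (22.6%) and 1 fell (1.89%), and 25 had an unadjusted p under 0.05. In bulk crosslinking data, more of a tRNA in the cell and more enzyme on each copy cannot be told apart. The part of the top of site counts in these family shares was not tested.

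tRNA-Arg-TCG was the family that fell. It held 30556 and 1517 untreated counts and 50448 and 33762 treated counts, or 21.2% and 20.6% against 6.12% and 6.22% of the library. Its log2 difference was -1.76 ± 0.10 (SE, adjusted p = 5.45e-05). The fall passed with TMM factors (-2.80), by both DESeq2 alternatives (-3.02 each), without sites above 500 counts (-1.72) and without each library in turn (-1.78 to -1.74). The other arginine families did not pass: tRNA-Arg-CCT held 10.3% and 10.3% untreated and 9.52% and 8.75% treated, and tRNA-Arg-TCT 15.4% and 6.77% against 8.66% and 8.86%.

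The rising families fall into an abundant and a rare set. tRNA-Ala-AGC rose from 1.78% and 2.71% to 7.32% and 8.01%, tRNA-Asn-GTT from 1.79% and 1.99% to 5.00% and 4.66%, and tRNA-Thr-CGT from 0.346% and 0.828% to 3.43% and 3.37%. tRNA-Thr-AGT, tRNA-Ala-CGC and tRNA-Gln-CTG rose to means of 2.65%, 2.38% and 1.65%. tRNA-Asp-GTC, the tRNA for aspartate, rose from 92 and 3 counts to 3041 and 2542. In the rare set, tRNA-Gly-TCC, tRNA-Leu-TAG, tRNA-Glu-CTC, tRNA-Gln-TTG and tRNA-Leu-AAG had between 1 and 14 untreated counts and means of 0.0150% to 0.111% of treated counts. Against these, 3 counts in untreated 2 are already 0.0407%.

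The split of the family calls depended on the scaling: 2 rose and 8 fell under TMM scaling, 1 rose and 9 fell under the size factors of DESeq2, and 2 rose and 10 fell by its Wald test. The median family was at 1.35 with total counts, 0.32 with TMM factors and 0.10 with DESeq2 size factors, and changes are therefore relative to these. Of the 12 rises 0 passed without 5-ClUrd 1 or without 5-ClUrd 2 (7 and 4 of all families tested then had an unadjusted p under 0.05 in edgeR), and 2 passed without sites above 500 counts. All 12 kept a positive sign under these settings. Without untreated 1, 8 of the 12 passed among 26 rises and 5 falls, and without untreated 2, 11 passed among 28 rises and 7 falls.

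**Figure D5:**
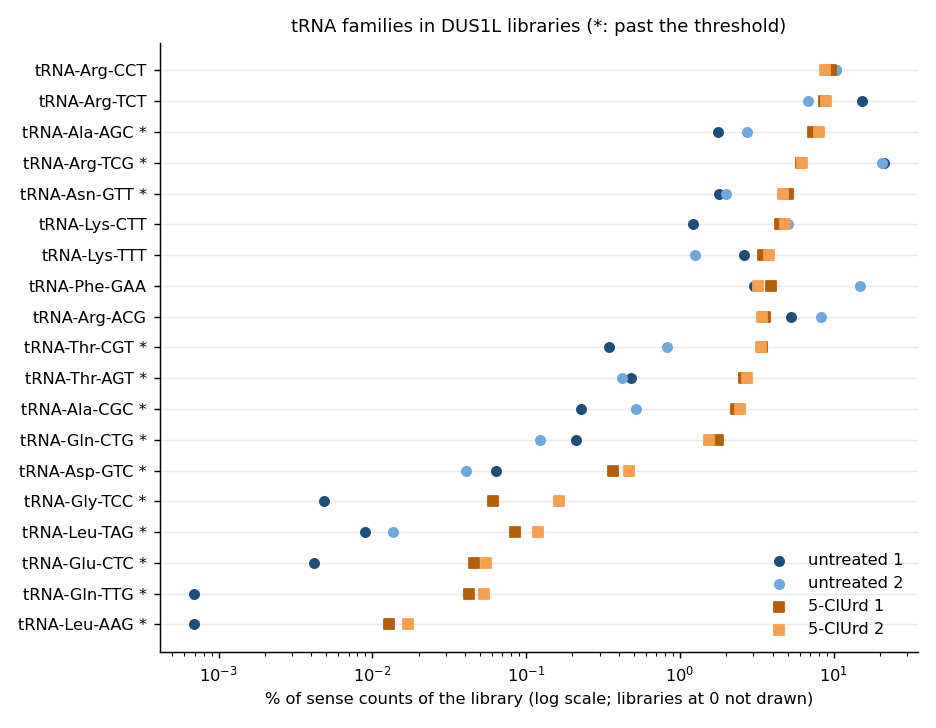
Share of sense counts (%, log axis) of the tRNA families past the threshold (asterisk) and of the 10 families with the highest treated share, with a point for each library (circles untreated, squares with 5-ClUrd). tRNA-Arg-TCG is at 21.2% and 20.6% untreated and 6.12% and 6.22% treated, and every other marked family has its squares to the right of its circles (shares of 0 are not drawn).

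The tRNAs with a long variable arm (type II: those for serine, leucine and selenocysteine) held 0.875% and 3.01% untreated and 8.63% and 9.51% treated, and 2 of 10 families rose, against 22.6% of all families. Their median log2 difference was 2.68, beside 1.35 over all families. Of the 8 families whose anticodon starts with adenosine, a base that is deaminated to inosine in many finished tRNAs, 3 rose, with a median of 2.05. Both glutamine families rose, from 0.212% and 0.122% together to 1.81% and 1.59%. The leucine families held 0.391% and 0.706% untreated and 2.67% and 2.62% treated, and 2 of 5 rose. Lysine (0 of 2), isoleucine (0 of 3) and valine (0 of 3) families gave no calls.

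Single references also rose more often than they fell with scaling to sense counts, though reads of near-identical references can be split between them. Of 223 references, 79 rose (35.4%) and 11 fell (4.93%). Under TMM scaling 31 rose and 23 fell, under the size factors of DESeq2 21 rose and 32 fell, and by its Wald test 22 rose and 20 fell. With sites above 500 counts left out, 31 rose and 5 fell. Without 5-ClUrd 1 or 5-ClUrd 2, 0 passed in edgeR, with 24 and 31 references at an unadjusted p under 0.05.

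The fall of the arginine family was uneven among its references. tRNA-Arg-TCG-1-1 held 23624 and 1180 untreated and 22890 and 16569 treated counts, and fell by 2.47 on the log2 scale (adjusted p = 3.89e-08). It held 16.4% and 16% of untreated counts and 2.78% and 3.05% of treated counts. When sites above 500 counts were left out its difference was -2.49 and did not pass. The 6 references of tRNA-Arg-TCG ranged from -2.47 to 0.03, and 1 fell. Among the 5 references of tRNA-Arg-TCT, tRNA-Arg-TCT-4-1 fell by 1.70, and tRNA-Arg-TCT-1-1, with 7204 and 218 untreated and 33597 and 22598 treated counts, was at 0.05 ± 0.45 (SE). The phenylalanine reference printed above fell by 1.35 with overlapping groups (3.01% and 14.8% untreated, 3.83% and 3.16% treated), and was at 0.22 without untreated 2. Its family, tRNA-Phe-GAA, did not pass (adjusted p = 0.152, edgeR).

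Other isoacceptors also held references that moved apart. Of 16 references of tRNA-Cys-GCA, 2 rose and 4 fell, with log2 differences from -3.81 to 5.72. tRNA-Cys-GCA-14-1 had 61 and 1 untreated and 65 and 11 treated counts, and tRNA-Cys-GCA-17-1 had 231 and 3 untreated and 151 and 143 treated counts. All 4 tRNA-Ser-AGA references, all 4 tRNA-Ser-CGA references, all 3 tRNA-Leu-TAG references and 5 of 6 tRNA-Thr-AGT references rose. Over all references 35.4% rose and 4.93% fell. As families, tRNA-Ser-AGA and tRNA-Ser-CGA did not pass (adjusted p = 0.0641 and 0.129, edgeR). The largest rises were from 0 untreated counts: tRNA-Gln-TTG-2-1 (307 and 269 treated counts, at least 21.9-fold), the tRNA-Leu-AAG-2 genes (95 and 85, at least 6.87-fold) and tRNA-Tyr-GTA-8-1 (157 and 43, at least 6.82-fold).

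The authors' peak lists, deposited for each library, differed in length as the libraries did in depth. They held 126 and 37 peaks untreated and 335 and 256 with 5-ClUrd, of which 100, 37, 225 and 184 lay on tRNA. The tRNA peaks touched 32 and 21 isoacceptors untreated and 44 and 42 treated. Peaks centred at positions 1 to 13 were 12% and 2.703% of untreated and 16.4% and 16.3% of treated tRNA peaks, and those centred at positions 14 to 21 were 20% and 24.3% against 21.3% and 23.4%. Of the untreated 1 peaks 57.1% overlapped a 5-ClUrd 1 peak by at least 1 nt on the same strand, and 21.49% of the 5-ClUrd 1 peaks overlapped an untreated 1 peak. The 2 treated lists shared 169 peaks, 50.4% of the first and 66% of the second, while 15 untreated 1 peaks, 11.9% of that list, overlapped untreated 2 (40.5% of its 37). The number of peaks moved with the depth of the libraries, and the part of depth in these counts was not tested.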

How the data were processed

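The deposited site files hold raw whole-number counts per crosslink site and strand, and the deposited peak files hold intervals whose score is the summed count inside (754 of 754 peaks checked). Reads were aligned with STAR 2.7.0f and the build was hg38, per the submitters' processing notes; how molecular identifiers, filters and peak calling were handled is not stated in the sources used. Sense counts of the 4 DUS1L libraries were summed to families, isoacceptor positions and references. Features with at least 10 counts were tested with edgeR 4.0.16 (quasi-likelihood, R 4.3.3, libraries scaled to sense counts, Benjamini-Hochberg, threshold 0.05). Positions relative to their isoacceptor used its total as offset. Shares used exact two-sided permutation tests (scipy 1.17.1). Alternatives included DESeq2 1.42.0. The fits were run on simulated counts with known changes and no top of site counts, which leaves the effect of that top unchecked.

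Members and lists were chosen with earlier results of these data known. Named features were families past the threshold and the 10 of highest treated share; for positions the 12 of highest treated and 8 of highest untreated share and the 10 largest rises and falls without overlap; for positions within isoacceptors the same 10 and 10, of which 4 falls existed; and 6, 5 and 5 references. Lists by the base at positions 16, 17 and 20 were void, since 11 of 252 references had a sequence. Intervals and floors cover counting error only.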

Additional observations from a re-analysis of the deposited data

How the results depend on the processing

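Depth and the top of site counts limit these results: 3 counts are 0.0407% of untreated 2, and single sites did not exceed 1269 counts in these libraries. Families past the threshold numbered 13, against 27 with all 8 libraries in 1 fit, 5 without sites above 500 counts and 1 to 35 with a library left out. Isoacceptor positions numbered 609, against 379 with TMM factors, 369 with DESeq2 size factors, 385 in DESeq2's Wald test and 40 to 853 with a library left out. References numbered 90, against 54 with TMM factors, 53 with DESeq2 size factors, 42 in DESeq2's Wald test, 36 without sites above 500 counts and 0 to 130 with a library left out. Positions within isoacceptors numbered 88, against 13 without sites above 500 counts, where fewer positions were tested, and 36 to 323 with a library left out. A group reduced to 1 library was assumed to vary like the other group. The D-loop difference of 6.22 points was 2.51 at positions 16 and 17, 8.63 at positions 13 to 22, 2.73 without sites above 500 counts, -0.679 with each site counted once, and 4.35 to 8.08 with a library left out. The difference in the 10 fullest positions was -39.9 to -11.1 with a library left out.

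With the replicate number as a block, 19 families, 468 positions, 49 references and 68 positions within isoacceptors passed. Among these, 12 families, 333 positions, 48 references and 22 positions within isoacceptors had also passed without the block, with the same sign. Deviations of same-numbered libraries correlated at 0.103 over families and 0.0531 over positions, with 2 pairs. With so few libraries, these values cannot decide whether same-numbered libraries share more than a number.

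Signs turned at these places, and the cause was not tested. With TMM factors, DESeq2 size factors and DESeq2's Wald test in turn, tRNA-Lys-CTT was at -0.43, -0.57 and -0.58, tRNA-Lys-TTT at -0.16, -0.42 and -0.42, position 36 of tRNA-Ala-AGC at -1.09, -0.89 and -0.91, and position 26 of tRNA-Ser-TGA at -0.37, -0.027 and -0.025. The references tRNA-Arg-CCT-3-1 (-0.51, -0.85 and -0.85), tRNA-Arg-TCT-1-1 (-0.89, -1.23 and -1.23) and tRNA-Arg-TCT-3 (-0.64, -0.99 and -0.99) turned as well. Without sites above 500 counts, tRNA-Arg-ACG was at 0.030, tRNA-Arg-TCT-1-1 at -0.058, position 26 of tRNA-Arg-CCG at 1.66, position 58 of tRNA-Arg-CCT at 1.08, position 27 of tRNA-Asn-GTT at 0.35, position 37 of tRNA-Phe-GAA at 0.55, and the set of positions 9, 26, 32, 37 and 58 at 2.90 points. Position 58 of tRNA-Arg-CCT was at 0.37 with the replicate block. Over the fits that leave out a library, tRNA-Arg-TCT ranged from -0.81 to 0.37, tRNA-Lys-CTT from -0.13 to 1.93, tRNA-Phe-GAA from -2.06 to 0.23 and its main reference from -2.08 to 0.22. In the same fits, position 36 of tRNA-Ala-AGC ranged from -0.15 to 0.36, position 58 of tRNA-Arg-CCT from -1.11 to 2.08, position 27 of tRNA-Asn-GTT from -0.26 to 0.12 and position 26 of tRNA-Ser-TGA from -0.18 to 3.89. The references tRNA-Arg-CCT-1-1, tRNA-Arg-TCT-1-1 and tRNA-Arg-TCT-3 ranged from -0.86 to 0.034, from -0.28 to 0.48 and from -0.24 to 1.24.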

Other observations

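Ribosomal RNA took a small part of the DUS1L crosslinks with and without the analogue. 28S rRNA, the RNA of the large ribosomal subunit, held 1017 and 23 counts untreated and 4313 and 2696 with 5-ClUrd, or 0.705% and 0.312% against 0.523% and 0.497% of sense counts. 18S rRNA held 0.314% and 0.122% untreated and 0.288% and 0.110% treated, and the spacers of the 45S precursor 0.285% and 0.0407% against 0.246% and 0.212%. The groups overlapped for each of the 5 rRNA families, and 0 of 5 passed in edgeR's quasi-likelihood test.

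Counts on the antisense strand were few in every library. They made up 0.728% and 0.352% of all counts untreated and 0.683% and 0.584% with 5-ClUrd, and the groups overlapped.

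The treated libraries resembled each other more than the untreated ones did. Across the 1921 isoacceptor positions tested, log2 shares (with 0.001 percentage points added) correlated at 0.947 between the treated and at 0.597 between the untreated libraries. Across the 53 families the values were 0.985 and 0.886. These are correlations across positions or families, which are not independent replicates, and the untreated pair differed 19.6 times in depth.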
